A study of Mus musculus with 23 samples.

Results

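The clustered regions are 634 windows of mouse liver DNA, each 100 bp long, that lie within 1000 bp of another window with a called difference in methylation. They were chosen by position from the authors' deposited list of called differences, so the measured values that put a window on that list in any of 4 comparisons also chose the members. A window counted when the start of another listed window on the same chromosome was at most 1000 bp away, and chromosomes 1, 2, 4, 6 and 11 were left out. The 634 were 25.2% of the 2518 listed windows on the other 14 autosomes, out of 3885 in the whole list. The remaining 1884 windows of those 14 chromosomes had no listed neighbour within 1000 bp and are called isolated. Because the listing used the same comparisons that are described, no test was made of clustered against isolated windows. Shares are given with exact (Clopper-Pearson) 95% intervals, which cover counting error over windows only and are too narrow where neighbouring windows share DNA fragments.

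The assay was reduced representation bisulfite sequencing (RRBS), which reads the cytosines of MspI fragments, here 40 to 220 bp long. The libraries came from individual livers of 23 mice aged 8 to 12 weeks, in 4 groups: 6 males and 5 females as controls, and 6 males and 6 females of the KO. All of them carried a floxed Stat5a-Stat5b locus on a mixed C57BL/6 x 129J background. The KO mice (STAT5ab-KO) also carried a Cre transgene under the albumin promoter, from an FVB/N line, which deletes STAT5a and STAT5b in hepatocytes and leaves the other liver cells with both genes. The DNA was of whole liver, so a changed methylation level within cells and a changed share of cell types cannot be told apart. Of 5 codes in the sample titles, whose meaning the labels do not give, 1 was shared by control females and KO males and none by KO and control mice of the same sex. In each KO comparison the codes therefore cannot be told apart from the genotype. Only 2 codes occurred in both sexes of a genotype, so the sex comparisons were unbalanced in them. The titles of all KO females, no control female and part of the males of each genotype also end in -B, likewise unexplained. In the female KO comparison this ending cannot be told apart from the genotype, and it was unbalanced between the sexes. The part of the codes and the ending in the results was not tested.

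DNA methylation in mammals sits mainly on the cytosine of CG dinucleotides, and is kept through cell division by enzymes that copy it onto the new strand. Neighbouring CGs often share their state, because writers, erasers and bound proteins act over stretches longer than a single site. STAT5a and STAT5b are the transcription factors through which growth hormone, which is released in a different pattern in male and female mice, acts on sex-biased liver genes. The deposited positions are in mm9, for which no annotation was used here, so windows are named by position and no gene or sequence is given.

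Each value is a difference in percent methylation, in percentage points, taken from the authors' group comparison: control males minus control females, KO males minus KO females, KO males minus control males, or KO females minus control females. The list holds a value where the absolute difference exceeded 15 points with the q-value below 0.05, and elsewhere a 0, which does not separate a small difference from missing coverage. Methylation levels, coverage and values per animal are not part of the table used here. The depth behind a value is therefore unknown, and no spread between animals can be set beside it.

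Most clusters were short. The 634 windows formed 287 chains: 244 pairs, 33 triplets, 8 of 4 windows, 1 of 5 and 1 of 10. The median chain spanned 200 bp from its first to its last base and the longest 2000 bp. In 231 chains (80.5%) every window abutted the next, and 288 of 347 adjacent pairs (83.0%) were 100 bp apart from start to start. A further 28 pairs were 200 bp apart and 12 were 300 bp apart, so that only 19 pairs lay beyond the reach of a single selected fragment. Abutting windows can be read from the same MspI fragment, and their values are then not separate measurements. Clustered windows made up between 19.2% (chromosome 7) and 31.2% (chromosome 16) of the listed windows of a chromosome.

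The comparison of KO with control males gave the most listings in clusters. A difference between KO and control males was listed at 437 of the 634 clustered windows (68.9%, 65.2 to 72.5), against 52.6% of isolated windows and 55.4% of the whole list. Methylation was higher in KO males at 319 windows and lower at 118, where 37.8% of the whole list was higher and 17.7% lower. Gains thus made up 73.0% (68.6 to 77.1) of the clustered differences and 65.5% (62.4 to 68.4) of the isolated ones. With each cluster counted once, by its mean change, 71.5% of 221 clusters gained. Gains outnumbered losses on all 14 chromosomes, from 7 to 6 on chromosome 14 and 12 to 11 on chromosome 18 up to 17 to 0 on chromosome 12. The gains had a median of 21.2 points and the losses a median of -19.3 points, and at isolated windows these medians were 19.95 and -19.95 points. Differences of at least 25 points made up 29.1% of the clustered values and 23.1% of the isolated ones.

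In females the clustered windows were not listed more often than the rest, but more of those listed were gains. KO females differed from control females at 161 clustered windows (25.4%, 22.0 to 29.0), close to the 26.8% of isolated windows and the 28.1% of the whole list. Of these, 121 were higher in KO females and 40 lower, beside 17.1% and 11% of the whole list. The share of gains was 75.2% (67.7 to 81.6) in clusters and 56.8% (52.4 to 61.2) at isolated windows. The first interval counts windows of the same cluster separately, so the 2 intervals are no test of a difference. With each cluster counted once, 76.6% of 111 clusters gained. Gains were in the majority on 12 of 14 chromosomes, the exceptions being chromosome 13 (1 gain, 2 losses) and chromosome 14 (4 gains, 8 losses). The clustered differences had a lower median size, 19.6 points (18.7 to 20.7) against 21.2 points (20.4 to 22.0). Of them, 21.1% (15.1 to 28.2) reached 25 points, beside 30.7% (26.7 to 34.9) of the isolated ones, and both sets of intervals overlap. Males had the reverse order of sizes, with a median of 20.9 points in clusters and 19.95 at isolated windows.

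**Figure D1:**
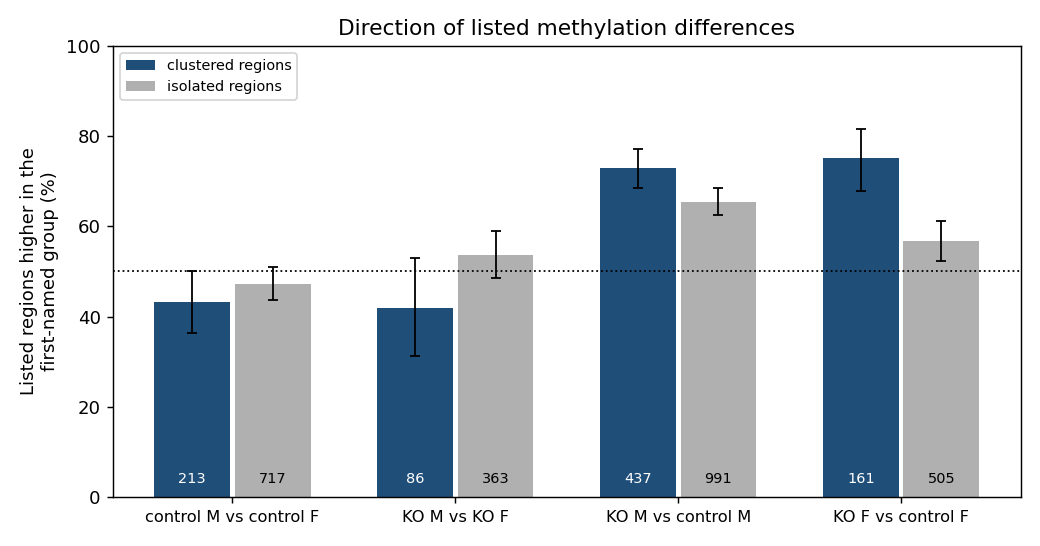
Share of listed windows that were higher in the first-named group (vertical axis, percent), for clustered (blue) and isolated (grey) windows in each of the 4 comparisons (M, males; F, females); bars show the share, whiskers its exact 95% interval, and the number at the foot of a bar the windows listed. Clustered windows stand at 73.0% and 75.2% in the KO comparisons and below the dotted 50% line in the comparisons between the sexes.

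Sex differences took lower shares of the clustered windows than of the isolated ones. Control males and females differed at 213 clustered windows (33.6%, 29.9 to 37.4), against 38.1% (35.9 to 40.3) of isolated windows and 38.4% of the whole list. The intervals of the clustered and isolated shares overlap. Control males were higher at 92 and lower at 121, where 18.2% and 20.3% of the whole list fell. The male-higher share was 43.2% (36.4 to 50.1) in clusters and 47.3% (43.6 to 51.0) at isolated windows. Among differences of at least 25 points it was lower, at 18.8% of 48 clustered values (8.95 to 32.6) against 43.4% of the isolated ones. Large sex differences in clusters of control liver were thus mostly windows with less methylation in males.

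KO males and KO females differed at 86 clustered windows (13.6%, 11 to 16.5), below the 19.3% (17.5 to 21.1) of isolated windows and the 18% of the whole list. KO males were higher at 36 and lower at 50, beside 9.06% and 8.93% of the whole list. The male-higher share was 41.9% (31.3 to 53.0) in clusters and 53.7% (48.4 to 58.9) at isolated windows, and these intervals overlap. This comparison also gave the smallest differences in clusters, with a median size of 18.6 points, and 13.95% of them reached 25 points.

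Of the 634 clustered windows, 404 were listed in a single comparison (63.7%, 59.8 to 67.5), 203 in 2, 21 in 3 and 6 in all 4. At isolated windows a single comparison accounted for 70.5% (68.4 to 72.6), and listing in all 4 for 1.91%, beside 0.946% in clusters. The mean number of comparisons per window was 1.41 in clusters and 1.37 elsewhere, and with differences of at least 25 points alone the order turned, to 1.23 and 1.29. The most frequent single pattern was a difference between KO and control males alone, at 250 clustered windows (39.4%) and 635 isolated ones (33.7%). Windows listed for both KO comparisons and for no other made up 10.4% of clustered and 4.25% of isolated windows. The 4 comparisons share groups, so that listing in several of them is in part arithmetic, except between the KO comparison in males and that in females, or between the sex comparison in controls and that in KO mice, which have no library in common.

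In clusters the KO changes of males and females went the same way at nearly every window listed in both. There were 86 such windows, 19.7% of the clustered male list and 53.4% of the clustered female list. At isolated windows the 144 in both lists were 14.5% of the male and 28.5% of the female list. In clusters 72 windows gained methylation in both sexes, 8 lost it in both and 6 changed in opposite directions, so that 93.0% (85.4 to 97.4) had the same direction. At isolated windows 81 gained in both, 29 lost in both and 34 were opposite, a same-direction share of 76.4% (68.6 to 83.1). Isolated opposite changes were frequent on chromosome 18, which held 11 of the 34. Without that chromosome the shares were 95.1% (88.0 to 98.7) in clusters and 82.4% (74.8 to 88.5) at isolated windows, and these intervals overlap. The clustered lists also held larger shares of gains, and the part of this in the share of same directions was not tested.

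In 83 clusters at least 1 window was listed for KO males and at least 1 for KO females, in 65 of them with a window listed in both and in 18 only through different windows. The mean changes had the same direction in both sexes in 76 of the 83 (91.6%), as gains in 63 and as losses in 13. Most of these clusters repeat the windows listed in both sexes, and among the 18 without such a window the direction was the same in 14. The largest paired gain that the authors' deposited table gives in clusters was at chromosome 5, 123220901 to 123221001, with 38.0 points in males and 39.6 in females. The largest paired loss in the authors' deposited table was at chromosome 3, 39720801 to 39720901, with -45.6 points in males and -32.8 in females. These 2 windows were picked after their values were seen, by the smaller of both differences.

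**Figure D2:**
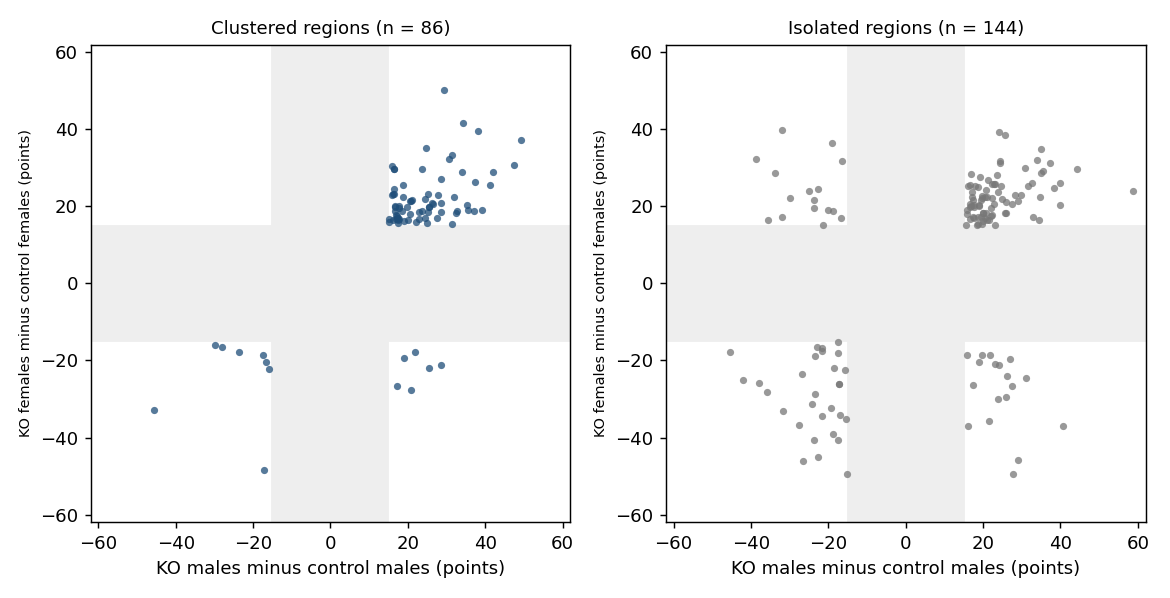
Change in KO males (horizontal axis, points) against change in KO females (vertical axis, points) for each window listed in both KO comparisons, with clustered windows on the left and isolated ones on the right; grey bands mark the unlisted range below 15 points. The clustered points lie mostly in the upper right (72 of 86), while 34 of the 144 isolated points lie in the opposite-sign corners.

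All 6 opposite clustered windows gained methylation in KO males while losing it in KO females. In the authors' deposited table, the abutting windows at chromosome 8, 120372301 to 120372501, had 20.9 and 28.5 points in males and -27.6 and -21.2 points in females. The pair at chromosome 18, 80449501 to 80449701, is given in the authors' deposited table with 19.1 and 17.2 points in males and -19.4 and -26.6 points in females. The other two were single windows of their clusters, at chromosome 5, 63260501 to 63260601, and chromosome 15, 14071701 to 14071801. Control males were lower than control females at all 6 windows, with values of -16.1 to -33.4 points in the authors' deposited table. The control groups enter both kinds of comparison, so these values are not separate findings.

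The sex difference of controls and that of KO mice, which have no library in common, were both listed at 19 clustered windows and 94 isolated ones. The direction was the same at 15 of the 19 (78.9%, 54.4 to 93.9) and at 40 of the 94 (42.6%, 32.4 to 53.2). Without chromosome 18 the shares were 77.8% (52.4 to 93.6) in clusters and 48.1% (36.9 to 59.5) at isolated windows, and these intervals overlap. Several of the 19 abut within the same cluster, such as 3 windows on chromosome 14 from 66378301. They are not separate measurements where they share a fragment, and the interval of the 15 of 19 is then too narrow. At 13 of the 15 clustered windows males were the lower sex with and without STAT5. These 19 windows were 8.92% of the clustered control list and 22.1% of the clustered KO list, where the 94 were 13.1% and 25.9% of the isolated lists. Windows with both sex differences made up 2.997% (1.81 to 4.64) of clustered and 4.99% (4.05 to 6.07) of isolated windows.

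Within clusters, neighbours nearly always changed in the same direction. Over the 4 comparisons there were 377 cases in which adjacent clustered windows were both listed in the same comparison, and the direction was the same in 371 (98.4%, 96.6 to 99.4). A pair listed in several comparisons counts once for each, here and at longer distances. Such cases are not separate, and the pooled intervals are then too narrow. By comparison the counts were 212 of 213 for the male KO change, 45 of 47 for the female KO change, 87 of 89 for control males against control females and 27 of 28 for KO males against KO females. The share was 99.4% of 326 abutting cases, 88.9% of 36 cases at 200 to 300 bp and 15 of 15 cases at 400 to 1000 bp. The last group lies beyond the longest selected fragment, but 12 of its 15 cases came from the male KO comparison.

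The agreement fell with distance outside the clusters. Consecutive windows over 1000 and up to 10000 bp apart had the same direction in 56 of 71 cases (78.9%, 67.6 to 87.7). The share was 62.4% at over 10 and up to 100 kb, 61.9% up to 1 Mb and 57.5% (51.1 to 63.6) beyond 1 Mb. Consecutive windows over 1000 bp apart agreed in 62.1% of 1356 cases in all. Sizes were also closer at short range. Same-direction neighbours differed by a median of 3.05 points within clusters and by 5.10 points when over 1000 bp apart.

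**Figure D3:**
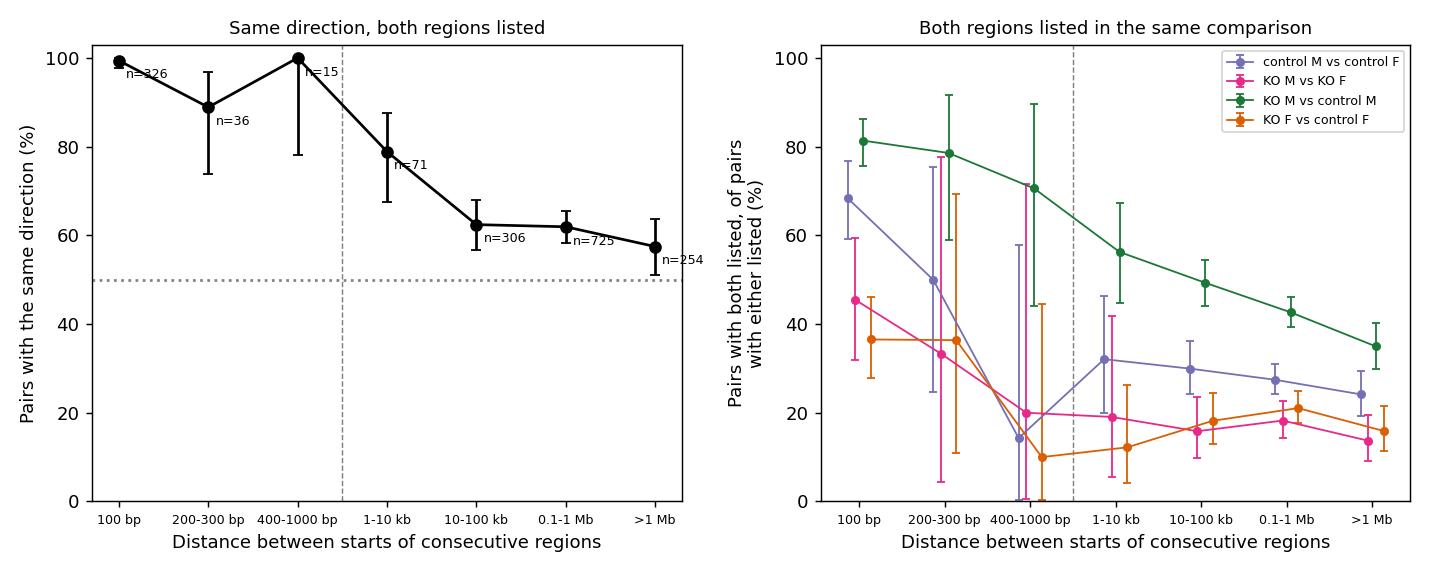
Left, share of consecutive windows listed in the same comparison that had the same direction (percent, all 4 comparisons together, n cases); right, share of pairs with both windows listed among pairs with either listed (percent, by comparison), both against the distance between starts, with exact 95% intervals. The dashed line marks the 1000 bp limit: the left share falls from 99.4% at 100 bp to 57.5% beyond 1 Mb, and on the right the male KO change stays above the other comparisons at each distance.

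Comparisons differed in how often a neighbour was listed too. For the male KO change, both windows were listed in 80.4% (75.1 to 85.0) of the 265 adjacent clustered pairs in which at least 1 was. The share was 63.6% (55.0 to 71.5) of 140 pairs for the control sex difference, 42.4% of 66 pairs for the KO sex difference and 34.6% (26.6 to 43.2) of 136 pairs for the female KO change. Over 1000 bp the order was led by the same comparison, with 43.2%, 27.3%, 16.6% and 18.96%. A female KO change was therefore often a single listed window beside windows listed for another comparison. Of the 111 clusters with a female KO change, 65 held it in a single window, against 40 of 221 clusters for the male KO change. All of these counts depend on how many windows a comparison lists, and no adjustment was made for it. The male KO change was listed at 68.9% of clustered windows and the female at 25.4%.

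Counted by cluster, direction was uniform in 327 of the 333 cases with 2 or more windows listed in the same comparison, higher throughout in 217 and lower throughout in 110. For the male KO change 137 clusters gained, 43 lost and 1 was mixed. For the female KO change these numbers were 32, 12 and 2, for the control sex difference 37, 40 and 2, and for the KO sex difference 11, 15 and 1. The values of a uniform cluster spanned a median of 3.78 points for the male and 4.04 points for the female KO change. The interquartile range of sizes over isolated windows, 7.29 and 8.50 points in these comparisons, is a spread over many values and not a like measure. By pairs, same-direction neighbours differed by a median of 3.05 (male) and 3.57 (female) points within clusters. Those over 1000 bp apart differed by 4.93 and 6.29 points. In 248 of 287 clusters (86.4%) at least 1 comparison was listed at every window, and in 28 no comparison was listed at more than 1 window.

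**Figure D4:**
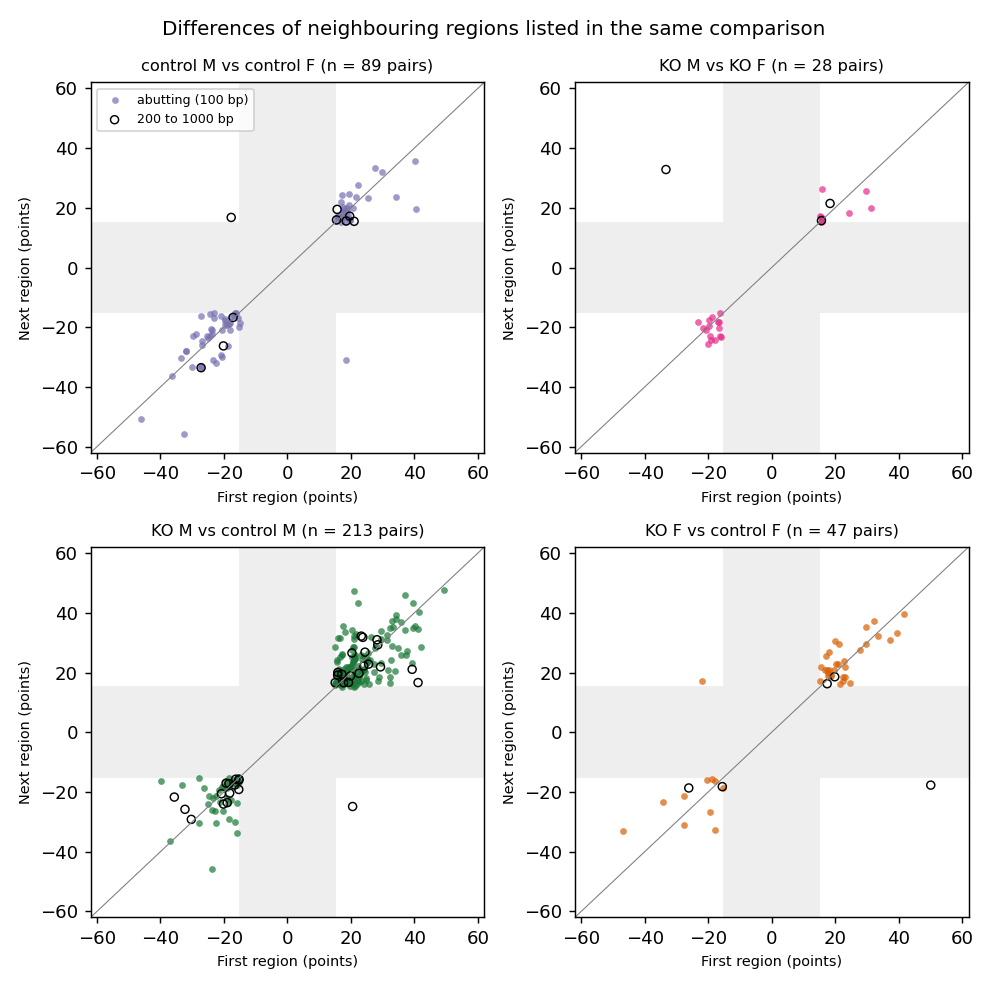
Difference of a clustered window (horizontal axis, points) against that of the next window (vertical axis, points) where both were listed, by comparison; filled points abut, open circles are 200 to 1000 bp apart, grey bands mark the unlisted range and the line marks equal values. Of 377 cases, 371 lie in the same-sign corners, and the 6 others lie in the opposite-sign corners.

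The 6 exceptions were all at most 200 bp apart, and 4 of them lay on chromosome 5. One was a reversal of the KO sex difference: the authors' deposited table gives -33.3 points at chromosome 5, 15194301 to 15194401, and the window 200 bp further on had 32.8 points. The widest was in the female KO change, where the authors' deposited table has 50.1 points at chromosome 5, 63260301 to 63260401, and -17.7 points 200 bp on. KO males gained at all 3 windows of that cluster, with 29.3, 21.9 and 17.1 points in the authors' deposited table. For the male KO change, chromosome 5, 120073801 to 120073901, has 20.5 points in the authors' deposited table and the window 200 bp on has -24.9 points. In the control sex difference, the authors' deposited table gives 17.6, 18.4 and -31.1 points for 3 abutting windows from chromosome 14, 78117501, and -17.7 and 16.8 points for the windows starting at chromosome 5, 144016401 and 144016601. The last exception in the authors' deposited table was a female KO change of -22.0 and then 17.2 points in abutting windows from chromosome 15, 14071701.

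At 5 pairs both windows were listed in the same comparisons, with listed values identical to the last digit. Among the 2157 consecutive pairs over 1000 bp apart there was none. The authors' deposited table gives 16.4 points in males and 29.7 points in females for the KO change in both windows of chromosome 7, 15097001 to 15097201. The other pairs, with a sex difference of 15.4 to 18.8 points each in the authors' deposited table, began at chromosome 7, 25422101, chromosome 9, 91112201, chromosome 13, 58214101, and chromosome 19, 45525201. Whether such windows rest on the same reads was not tested. Without these pairs, 365 of 371 cases (98.4%) had the same direction.

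The 10 clusters of 4 or more windows held 47 windows, and within any of them each comparison kept a single direction. The longest, on chromosome 5 from 111847501 to 111849501, split into blocks. Its first 5 windows abutted and were lower in control males than in control females (mean -17.4 points, listed range -15.2 to -19.8 in the authors' deposited table), with no male KO change listed. Its last 5 windows were lower in KO males than in control males (mean -18.2 points), with no sex difference listed. KO females were lower than control females at 1 window of each block, with -16.2 and -22.2 points in the authors' deposited table.

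Gains in both sexes with no sex difference listed marked 4 of the long clusters. On chromosome 18, 39522301 to 39523101, the 4 windows gained a mean of 25.2 points in KO males, and 2 of them a mean of 19.2 points in KO females. The cluster on chromosome 10, 5725001 to 5725401, gained a mean of 18.995 points over 4 abutting windows in males and 18.8 points over the first pair in females. Means of 20.9 and 17.2 points were found on chromosome 3, 50794501 to 50795301, and of 22.0 and 19.2 points on chromosome 17, 28145001 to 28146101, over 3 windows in males and 2 in females. Losses in both sexes, again with no sex difference listed, marked the cluster of 5 on chromosome 17, 46765701 to 46766301, with means of -17.0 and -17.5 points over 3 windows each.

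In the other long clusters the sexes differed. On chromosome 10, 76032501 to 76032901, control males were lower than control females at all 4 windows (mean -27.7 points) and KO males were higher than control males at all 4 (mean 28.1 points). By the authors' deposited table the male gain there was highest at the second window (37.3 points), where KO females also gained (26.4 points), and lowest at the last (16.3 points), and KO males remained lower than KO females at the last pair (-20.8 and -20.9 points). On chromosome 16, 96380701 to 96381301, the 4 windows were lower in KO males (mean -18.6 points), and the last pair was higher in control males than in control females (mean 16.2 points). On chromosome 5, 115328801 to 115329201, KO males were lower than control males at 4 windows (mean -24.2 points) and lower than KO females at 3 (mean -21.4 points), with no change listed in KO females. On chromosome 9, 20296901 to 20297401, control males were lower than control females at 3 windows (mean -18.1 points) and KO females lower than control females at 2 (mean -17.0 points).

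**Figure D5:**
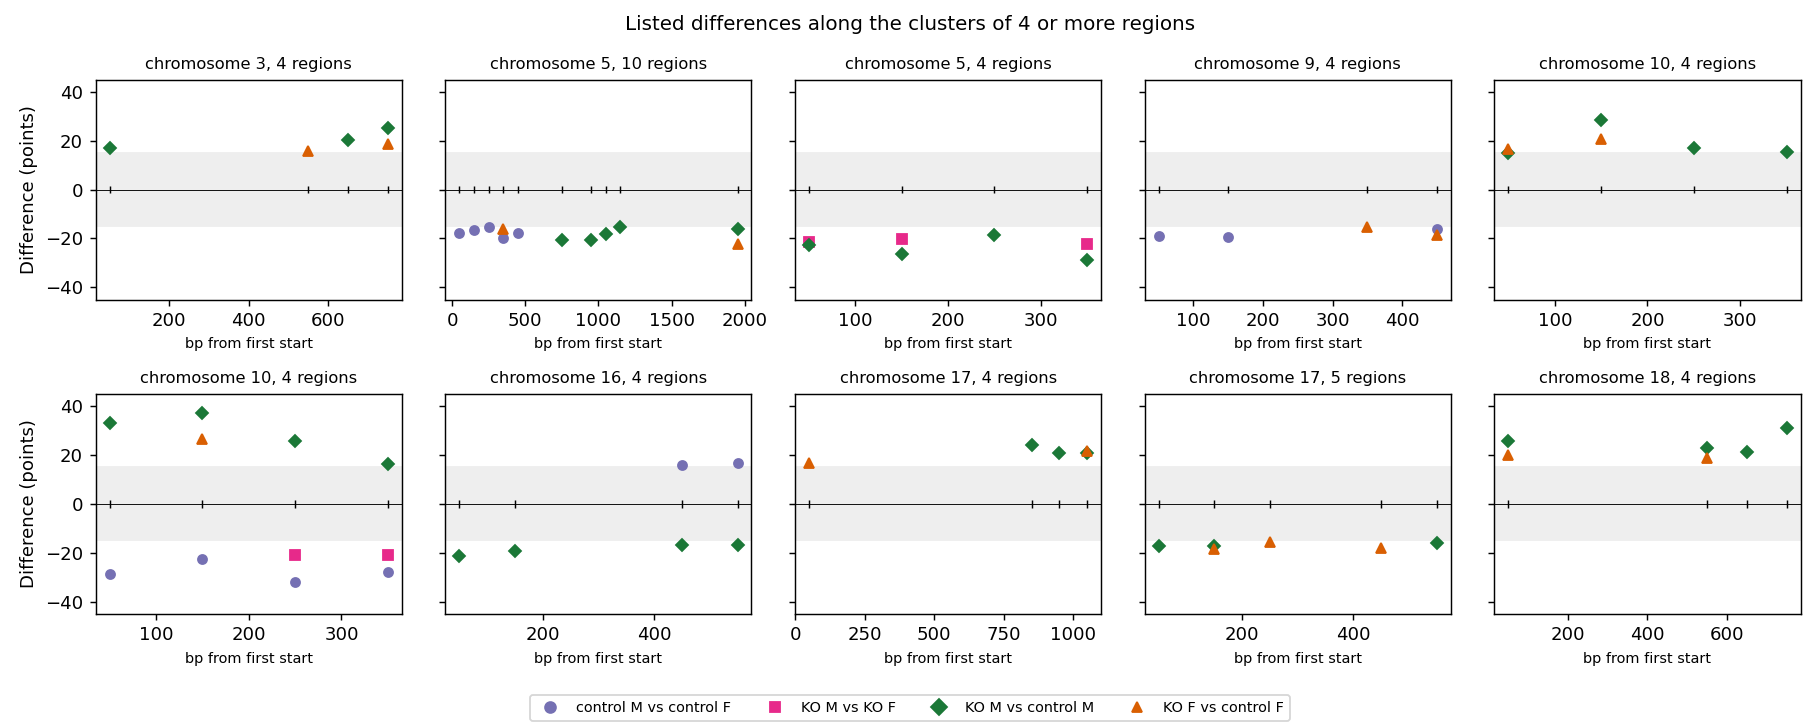
Listed differences (vertical axis, points) along each of the 10 clusters of 4 or more windows, against distance from the first start (horizontal axis, bp; ticks on the zero line mark window centres); symbols and colours give the comparison (M, males; F, females) and the grey band the unlisted range. Within a panel the symbols of a comparison stay on the same side of 0, and in the cluster of 10 the control sex difference and the male KO loss occupy different windows.

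Mean changes were ranked among clusters with 2 or more windows listed in the comparison, all in the same direction, and the largest came from pairs and triplets. For the male KO change the top cluster was chromosome 3, 18146401 to 18146601, with 49.4 and 47.5 points in the authors' deposited table. The same windows gained 37.2 and 30.8 points in KO females and had control sex differences of -24.36 and -22.96 points, again from the authors' deposited table. The second, chromosome 3, 108632401 to 108632601, had 37.1 and 46.1 points for the male KO change in the authors' deposited table, and the control sex difference there was -32.4 and -55.7 points. Male losses were largest at chromosome 15, 74764201 to 74764401 (mean -36.6 points), and chromosome 3, 39720701 to 39720901 (mean -34.6 points), where KO females also lost methylation (mean -25.4 points).

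For the female KO change the largest mean gain was at chromosome 5, 123220801 to 123221101, with 41.5, 39.6 and 33.1 points over 3 windows in the authors' deposited table. KO males gained a mean of 36.1 points at the first pair of these windows. The next was chromosome 7, 7230801 to 7231001 (mean 34.8 points), where control males were higher than control females by a mean of 30.9 points. The largest mean losses in females among clusters with 2 or more listed windows were at chromosome 7, 119645801 to 119646001 (-46.7 and -33.1 points in the authors' deposited table), and chromosome 14, 116864701 to 116864901 (mean -29.5 points). No male KO change was listed at either.

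Between control males and females, the largest clusters by this ranking were chromosome 9, 88961801 to 88962001, higher in males by a mean of 38.0 points, and chromosome 7, 19603101 to 19603301, lower in males (mean -48.3 points). At the second of these, KO males were higher than control males by a mean of 36.3 points and still lower than KO females (mean -17.7 points). Between KO males and KO females, the largest with 2 or more listed windows were chromosome 18, 75298701 to 75298901, higher in males by a mean of 27.6 points, and chromosome 16, 12328801 to 12329001, lower in males (mean -22.9 points). The first coincided with a male KO gain (mean 38.0 points) and the second with a female KO gain (mean 21.6 points). Next by the same ranking came the pair on chromosome 7 from 119645801 that lost methylation in KO females, higher in KO males by a mean of 25.5 points, and chromosome 8, 126834401 to 126834601, lower in KO males (mean -21.7 points).

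Only 5 clusters held 2 or more windows listed in at least 3 comparisons. They were those named on chromosome 3 from 18146401, chromosome 7 from 19603101, chromosome 8 from 120372301, chromosome 10 from 76032501 and chromosome 18 from 80449501. Control males were lower than control females and KO males higher than control males at every window of all 5 that was listed for these comparisons. The control males enter both comparisons, so these directions are not separate findings.

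Few windows lay near the distance limit. Just inside it, 2 pairs were 1000 bp apart and 2 were 900 bp apart. In the authors' deposited table both pairs at 1000 bp gained in KO males at both windows, with 24.4 and 26.8 points on chromosome 5 from 123628801 and 39.3 and 21.1 points on chromosome 8 from 87245901. The pairs at 900 bp, on chromosome 7 from 114352801 and chromosome 13 from 37938701, had no comparison listed at both windows. Just outside, pairs 1100, 1300 and 1400 bp apart began on chromosome 14 at 15413801, chromosome 17 at 34275101 and chromosome 16 at 30259401. The first had male KO changes of -20.8 and -19.3 points in the authors' deposited table, the second 20.4 and 15.8 points, and the third no comparison listed at both windows.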

How the data were processed

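RRBS was run on liver DNA of 23 mice. The authors deposited a table of 100 bp regions with signed differences in percent methylation, in percentage points, for 4 group comparisons, and per the file legend listed a region where the absolute difference exceeded 15 points at a q-value under 0.05. The table's WT groups were taken to be the floxed controls. Per the submitters' processing notes, the tools were methylKit, Bismark and Trim Galore 0.4.3, with the mm9 build. Neither the coverage minimum nor the treatment of replicates is given in the sources used here.

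Regions were sorted, chained where starts were at most 1000 bp apart, and described with pandas 2.3.3, numpy 2.4.6 and SciPy 1.17.1 in Python 3.11.15 (matplotlib 3.10.9 for plots). In synthetic data with values in a single comparison, the chaining and counting returned the planted totals of clustered regions, gains, adjacent pairs and same-direction pairs. Intervals are exact binomial at 95%, and for medians by order statistics. No hypothesis test was made.

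The members and lists were chosen with earlier results of these data known. Named clusters were all those of 4 or more regions, the 2 largest mean gains and losses of each comparison among clusters with 2 or more regions listed in it and a uniform direction, clusters of mixed direction, those with 2 regions in 3 comparisons, and pairs nearest the distance limit. Alternatives covered the distance, chromosomes, cluster size, a 25-point minimum, the unit counted and the pairs counted.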

Additional observations from a re-analysis of the deposited data

How the results depend on the processing

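Of 166 values of 18 results recomputed under other settings, 137 lay within the 95% interval of the reported value, 29 lay outside it and no share whose interval excluded 50% crossed it. Neighbour distances of 500 and 2000 bp, the use of all chromosomes, leaving out clusters of 4 or more regions, the first pair of each cluster alone, leaving out chromosome 18 and leaving out pairs of identical values moved none outside it (the final 2 of these and that without chromosome 5 were added after the data were seen). A minimum of 25 points moved the most. The median sizes rose by construction, to 29.9 points between control sexes, 27.1 between KO sexes, 31.6 for the male and 31.0 for the female KO change. The share of higher values became 18.8%, 58.3% (of 12 values), 82.7% and 67.6% in the same order, and the mean number of comparisons per region 1.23. All 13 regions then listed in both KO comparisons had the same direction (100%). Adjacent pairs and clusters of uniform direction came to 100% in the control sex difference and in both KO changes, and to 50% (1 of 2) in the KO sex difference. Counting each cluster once gave a mean of 1.78 comparisons. A comparison listed at any region of a cluster then counts, which raises the mean by construction. With a distance of 10000 bp, the male KO change agreed in 96.5% of adjacent pairs and 95.6% of clusters. Pairs over 300 bp apart agreed in 100% of cases in each comparison, with a single case in every comparison but the male KO change. Without chromosome 5, agreement was 100% of pairs and of clusters for the KO sex difference and the male KO change. The share of gains in clusters minus that at isolated regions ranged over the settings from 6.00 to 16.7 points for the male and from 15.8 to 20.4 points for the female KO change.

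No paired analysis was possible because the table used here holds differences between groups and no value per animal. For the same reason no replicate was left out. The unknown coverage limits every value, and an unlisted region has no measured value.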

Other observations

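In 28 clusters no comparison was listed at more than 1 region. In the authors' deposited table, the pair from chromosome 13, 81486101, had a male KO gain of 32.0 points at the first window and a control sex difference of -25.7 points at the next. The pair from chromosome 14, 66336901, had 33.1 points and -27.8 points in the same order in the authors' deposited table. These 2 pairs were picked after their values were seen.

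With a single level per group at a region, the male KO change minus that of females equals the sex difference of KO mice minus that of controls. At the 6 clustered regions listed in all 4 comparisons, the values of the authors' deposited table closed within 0.05 points at 3 and were off by over 5 points at 2, on chromosome 8 from 120372301 (7.63 points) and on chromosome 10 from 67555701 (-6.46 points). At the 36 isolated regions listed in all 4, the values closed within 0.05 points at 23 and were off by over 5 points at 6, by at most 21.6 points. The cause was not tested.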
